A study of Rattus norvegicus with 5 samples.

Results

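Single cells from the retina of a rat 8 weeks after the induction of diabetes were set against those of a control rat. The pair comprised 1 control library (control replicate 2) and 1 library of 8 weeks of diabetes. A barcode, the tag that marks the transcripts of one captured cell, was taken where it held at least 200 genes and drew at most 20% of its UMIs from mitochondrially encoded genes. UMIs (unique molecular identifiers) are counts of captured transcript molecules. Of 32983 such barcodes in the 4 libraries analysed, 11962 belonged to the pair, and 11106 of 29779 remained once predicted doublets (barcodes that hold 2 cells) were left out, 6823 from control and 4283 from 8 weeks.

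Both rats were of the SD strain. The diabetic rat had a single injection of streptozotocin at 45 mg/kg, a compound toxic to the insulin-producing cells of the pancreas, and was kept on food rich in fat and sugar until week 8. The control rat had citrate buffer alone and is labelled as week 0. Both retinas were dissociated with trypsin, red blood cells were lysed, and the cells entered droplet-based 3' single-cell sequencing. Libraries at 2 and 4 weeks of diabetes are used only to place the pair. All comparisons of diabetic libraries with control share the same control library. A gene on one side of control in each of them may therefore reflect that library alone. The labels list 5 samples, and the other control sample was not analysed here. The labels give neither sex nor age, and they do not say whether a library pools several retinas. With 1 library a side, diabetes cannot be told apart from diet, age, animal or preparation, and no test between conditions was possible. Every interval below covers counting error only.

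In the retina, rods and cones pass light responses to bipolar cells, which drive ganglion cells, and amacrine cells shape that signal with inhibitory transmitters and peptides. Müller glia span the tissue and take up glutamate, potassium and water for the neurons. Microglia are the resident macrophages, and endothelial cells sealed by tight junctions and wrapped by pericytes make up the inner blood-retina barrier. Diabetic retinopathy is known as a disease of these vessels that also involves glia, microglia and neurons, with leakage and abnormal vessel growth among its later signs.

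The libraries held 25068331 UMIs over 9742 barcodes in control and 24604362 over 7649 at 8 weeks. The limit on mitochondrial UMIs took out 23.72% of control barcodes and 39.82% of those at 8 weeks. Kept cells had a median of 1016 UMIs in control and 1414 at 8 weeks. Of the kept barcodes, 8 sequences occurred in both libraries. Rod genes, which other cells pick up as free RNA, made up 2.07% and 2.69% of the UMIs of all cells, and 0.111 to 0.225% of those of amacrine, Müller, microglial and endothelial cells in the pair. Classes were named from marker genes of clusters built on all 4 libraries. Each named cluster had at least 3 markers of its class at least 2-fold above the other cells. In cluster 1, which held 3719 of the 5380 control rods and 1468 of the 3042 8-week rods, these were 6 rod markers, but none was among its 10 leading genes, which were headed by Chac1 and Trib3.

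Expression is given as CPM, the UMIs of a gene per 1000000 UMIs of the summed cells of a class. The difference is a log2 ratio of 8 weeks to control, so that 1 is a doubling, with 0.5 counts added to each sum and a 95% binomial interval. A gene was compared where its mean was at least 20 CPM with at least 30 UMIs over the pair. It is counted as higher or lower where it differed at least 2-fold and its interval excluded 0. Over so many genes some intervals exclude 0 through counting error alone.

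Neurons other than rods took up a larger part of the 8-week library, and Müller glia and mural cells a smaller part. Bipolar cells were 4.02% of control cells (95% exact interval 3.56 to 4.51%) and 8.87% at 8 weeks (8.04 to 9.76%). Cones were 1.25% and 2.64%, a log2 ratio of 1.08 (0.66 to 1.51). Amacrine cells were 2.98% and 4.93%, a log2 ratio of 0.73 (0.44 to 1.01). All 3 neuron classes therefore stood above control by more than counting error.

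Müller glia were 5.28% of control cells (4.76 to 5.83%) and 3.10% at 8 weeks (2.61 to 3.67%). Pericytes and smooth muscle, the contractile cells of vessel walls, numbered 40 cells in control and 13 at 8 weeks. Rods, the bulk of the tissue, were 78.9% and 71.0% of cells. Glial and rod intervals did not overlap between the libraries. Microglia (3.12% and 3.81%) and endothelial cells (1.35% and 1.19%) had log2 ratios whose intervals included 0, at -0.02 to 0.59 and -0.70 to 0.33.

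These shares moved with the mitochondrial limit. Most of the barcodes it took out were nearest to the mean of bipolar cells, 1722 in control and 2454 at 8 weeks. They made up 84.83% and 86.71% of all barcodes nearest to that mean. The same share was 2.79% and 8.74% for Müller glia, and 4.3% and 6.37% for rods. With the limit at 10%, the log2 ratio of the rod share was -0.02 and that of the cone share 0.35, with an interval that included 0 (-0.59 to 1.25). With it at 40%, the rod ratio was -0.42, the bipolar ratio 0.90 and the amacrine ratio 0.32. The endothelial ratio was -0.77 at 10%. The intervals of the bipolar, amacrine and Müller ratios excluded 0 on the same side under both limits.

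**Figure D1:**
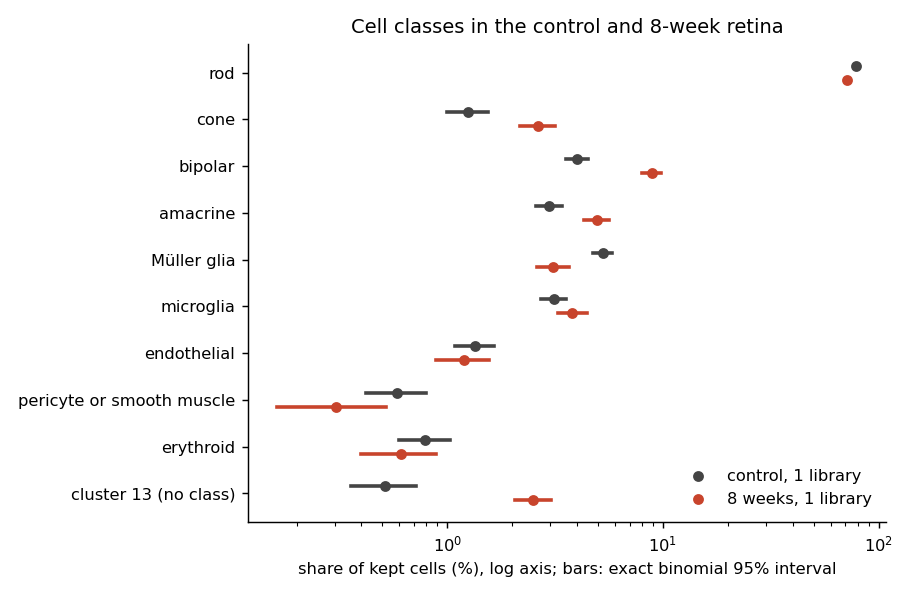
Share of kept cells in each class (percent, log axis) in the control and the 8-week library, 1 point per library, with 95% exact binomial intervals as bars. Bipolar cells, cones and amacrine cells lie above control at 8 weeks, and Müller glia (5.28% in control, 3.10% at 8 weeks) lie below it.

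A cluster whose markers were split evenly between amacrine and ganglion cells, numbered 13 here and left unnamed, held 35 cells in control, 34 at 2 weeks, 119 at 4 weeks and 107 at 8 weeks. Its share was 0.513% in control and 2.50% at 8 weeks (log2 ratio 2.27, 1.72 to 2.88). Its leading genes included Calb2, which encodes the calcium-binding protein calretinin, the synuclein gene Sncg and the neurofilament-type gene Prph. A small cluster with both T or NK cell and myeloid markers, cluster 31, held 13 cells in control and 0 at 8 weeks, where a count of 0 allows up to 3.

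Summed over all kept cells, the retina at 8 weeks showed fewer transcripts of Müller glia, vessel walls, chemokines and the class II chain Cd74, and more of cones and bipolar cells. Of 6442 genes compared, 31 were higher (0.481%) and 135 lower (2.1%), with a median log2 ratio of 0.08. With each cell given equal weight, however, 68 were higher and 42 lower. From such a sum alone, fewer cells of a type and less RNA per cell cannot be told apart. The genes were therefore also compared after each class was given its mean share of UMIs over the pair. The class shares were then equal, but the mix of subtypes within a class was not equalised.

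Of the 31 higher genes, 13 remained at least 2-fold higher at equal composition. Of the 135 lower genes, 12 remained at least 2-fold lower, 25 were 0.5 to 1 lower on the log2 scale, and 98 were less than 0.5 lower or, for 22 of these, above 0. In the library where they were higher, 50 of the 135 drew more UMIs from Müller glia than from any other class, and 40 from endothelial cells. Rlbp1, a retinoid-binding protein of the visual cycle, stood at 369 CPM in control against 149 at 8 weeks, with a log2 ratio of -1.30 as summed and -0.15 at equal composition. Glul, the glutamine synthetase of Müller glia, went from -1.03 to 0.07, and Aqp4, their water channel, from -1.30 to -0.13. Cldn5, the main claudin of retinal endothelium, had 728 and 364 CPM in control and at 8 weeks and went from -1.0 to 0.02. Endothelial cells were 1.35% and 1.19% of cells but held 5.31% of UMIs in control and 2.91% at 8 weeks. For Rlbp1, Glul, Aqp4 and Cldn5 the summed difference had almost no counterpart within classes.

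Other genes still differed at least 2-fold at equal composition, some of them by less than in the sum. Chac1, which breaks down glutathione, stood at 88.9 CPM in control against 26.3 at 8 weeks and had log2 ratios of -1.76 as summed and -1.77 at equal composition. Cd74, the invariant chain of class II antigen presentation, stood at 45.8 CPM in control against 9.48 at 8 weeks, with -2.27 and -1.81. Tnip1, which restrains NF-kB, had 52.7 and 21.3 CPM, with -1.31 and -1.26. Among higher genes, Pde6h, the inhibitory subunit of the cone phosphodiesterase, had 285 and 1002 CPM, with 1.82 and 1.11, and the amacrine peptide gene Cartpt had 301 and 727 CPM, with 1.27 and 1.08. Within 2 amacrine clusters Cartpt was 0.69 to 0.82 higher. The smooth muscle genes Tagln (-4.28 and -2.85) and Acta2 (-2.76 and -1.33) stayed low. Both drew more control UMIs from cluster 27 than from any other group, a cluster with endothelial and mural markers that was left unnamed and held 20 cells in control and 6 at 8 weeks.

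The gene lists followed the same split. None of 12 compared Müller homeostasis genes was higher and 3 were lower in the sum (median log2 ratio -0.62), as were 3 of 17 barrier genes (-0.67), 5 of 10 inflammatory genes (-0.99) and 3 of 6 interferon-response genes (-0.93). Of 11 cone phototransduction genes 3 were higher (0.60), and of 13 genes of the ON bipolar cascade, the relay that inverts the photoreceptor signal, 2 were (0.63). Within Müller glia and endothelial cells, the homeostasis and barrier lists had no member called higher or lower, as given below.

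**Figure D2:**
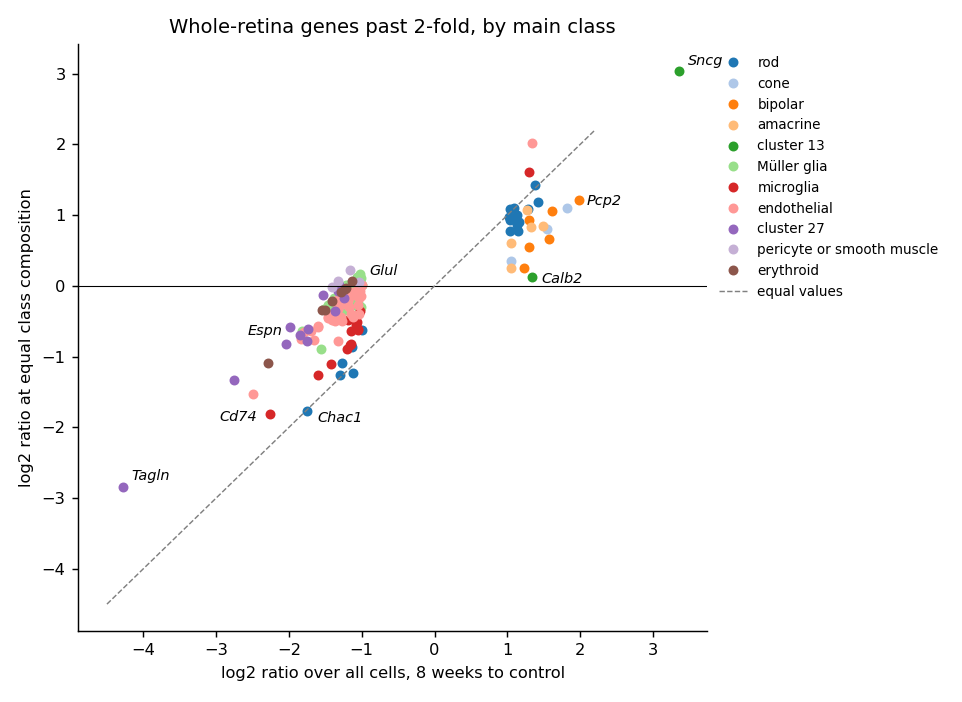
Log2 ratio of 8 weeks to control in the sum of all kept cells (x axis) against the same ratio at equal class composition (y axis) for the genes called in the sum, without 1 unnamed gene that had 0 UMIs at 8 weeks. Colours give the class with the most UMIs of the gene in the library where it was higher. Chac1 lies on the dashed line of equal values (-1.76 and -1.77), whereas Glul (-1.03 and 0.07) and Calb2 (1.34 and 0.12) lie near the horizontal line at 0.

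Rods at 8 weeks carried less of several stress, amino acid and class I histocompatibility transcripts, and more of a small set led by Ripply3 and Ccnd2, while the phototransduction genes stayed within 2-fold. Of 6131 genes compared over 5380 control rods and 3042 at 8 weeks, 24 were higher (0.391%) and 15 lower (0.245%). The median log2 ratio was 0.01.

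Ripply3, a co-repressor of T-box transcription factors, stood at 0.639 CPM in control, 0.356 at 2 weeks, 48.1 at 4 weeks and 50.0 CPM at 8 weeks, from 4 UMIs in control and 243 at 8 weeks (log2 ratio 6.12, 4.92 to 8.18). The 4-week and 8-week libraries were high and the other two near 0. Ccnd2, which encodes the G1 cyclin D2, stood at 14.5 CPM in control, 11.6 at 2 weeks, 22.5 at 4 weeks and 60.5 CPM at 8 weeks (log2 ratio 2.05, 1.71 to 2.41). Akap6, an anchor for protein kinase A, stood at 20.6 CPM in control, 17.2 at 2 weeks, 12.3 at 4 weeks and 66.5 CPM at 8 weeks (log2 ratio 1.69, 1.39 to 2.00). Ccnd2 and Akap6 were both highest at 8 weeks. The other leading genes were P3h4 (1.75), part of the collagen-modifying machinery of the endoplasmic reticulum, Mettl7a (1.48), Bmyc (1.37), the transcription factor gene Cebpb (1.13) and a histone H2B gene, Hist1h2bcl1 (1.01). Cdkn1a, the p21 cell-cycle inhibitor, was too low for the comparison at 6.39 CPM in control against 23.9 at 8 weeks (log2 ratio 1.89, 1.37 to 2.46).

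Chac1 stood at 185 CPM in control, 0.237 at 2 weeks, 13.2 at 4 weeks and 50.4 CPM at 8 weeks (log2 ratio -1.87, -2.08 to -1.67). Eif4ebp1, which restrains cap-dependent translation, stood at 45.5 CPM in control, 0.475 at 2 weeks, 2.79 at 4 weeks and 12.4 CPM at 8 weeks (log2 ratio -1.87, -2.31 to -1.48). Psat1, an enzyme of serine synthesis, stood at 49.7 CPM in control, 1.54 at 2 weeks, 1.03 at 4 weeks and 16.7 CPM at 8 weeks (log2 ratio -1.57, -1.95 to -1.22). All 3 were lowest at 2 or 4 weeks, and at 8 weeks they lay between those libraries and control. Tnip1 showed another order, at 96.7 CPM in control, 104 at 2 weeks, 32.2 at 4 weeks and 23.1 CPM at 8 weeks (log2 ratio -2.06, -2.37 to -1.78), with control and 2 weeks high and 4 and 8 weeks low. Cry2, a repressor of the circadian clock, stood at 147 CPM in control, 75.4 at 2 weeks, 100.3 at 4 weeks and 52.5 CPM at 8 weeks (log2 ratio -1.49, -1.69 to -1.29). The centriole gene Cep295 stood at 64.7 CPM in control, 10.8 at 2 weeks, 18.5 at 4 weeks and 24.1 CPM at 8 weeks (log2 ratio -1.42, -1.74 to -1.13). The 16 leading rod genes kept their direction in each rod cluster that held enough of their UMIs (at least 10). These were 3 clusters for P3h4 and 4 for the others.

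The ATF4 amino acid response, in which the transcription factor ATF4 raises amino acid synthesis and transport under stress, had 22 of 30 listed genes compared. One, Cebpb, was higher, Chac1 and Psat1 were lower, and 18 of the 22 lay below 0, with a median of -0.40 against 0.01 for all genes. Trib3, a pseudokinase that feeds back on ATF4, had 404 and 260.0 CPM, log2 ratio -0.64, -0.73 to -0.54. The arginine transporter gene Slc7a1 had 66.0 and 33.8 CPM, log2 ratio -0.96, the asparagine synthetase gene Asns 267 and 211 CPM, log2 ratio -0.34, and Atf4 itself 2953 and 2297 CPM, log2 ratio -0.36. Ddit3, which encodes the stress factor CHOP, differed from them at 572 and 624 CPM, log2 ratio 0.13. The aminoacyl-tRNA synthetases, which charge transfer RNAs and of which several are known ATF4 targets, had 18 of 20 below 0 with none called and a median of -0.28. The rod clusters 1 and 3 held most control rods and most 8-week rods. Their leading genes included members of this list, Chac1, Trib3, Mthfd2, Asns and Sesn2 in cluster 1 and Mthfd2 and Asns in cluster 3. Their sizes are therefore not read as a result. Cluster 1 held 26.11% of all UMIs in control and 12.91% at 8 weeks, and cluster 3 held 11.41% and 25.16%. The summed rod ratios thus compare different mixes of rod clusters, and the part of this in them was not tested.

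The list holds known targets of ATF4, and to show what their promoters hold the 250 bases before their start were searched for TGATGNAA, the core of the element bound by ATF4 with C/EBP proteins, on both strands. The window and start are those of RefSeq on build GRCr8, whereas the counts were made on Rnor_6.0. Of 31 genes (the list and Eif4ebp1), 27 matched the table by symbol and 6 of these (22.2%) held the motif, against 899 of 27457 promoters (3.27%). Since the list was drawn up from ATF4 targets, this share describes the list and bears on nothing at 8 weeks. The promoters are printed for 3 genes with a match and a log2 ratio below 0 in rods, 5' to 3' on the gene's strand, with the match in capitals. Chac1 lies on the plus strand at chr3:126795881-126796130, with its match on the reverse strand 167 bases before the start. Trib3 lies on the minus strand at chr3:161275534-161275783, with a reverse-strand match 21 bases before the start. Slc7a1 lies on the plus strand at chr12:11664238-11664487, with a forward match 30 bases before the start. The other matches were in Slc1a4, Pck2 and Nupr1. Psat1 and Asns held none in this window. A match is a run of letters, not a measured site.
Chac1: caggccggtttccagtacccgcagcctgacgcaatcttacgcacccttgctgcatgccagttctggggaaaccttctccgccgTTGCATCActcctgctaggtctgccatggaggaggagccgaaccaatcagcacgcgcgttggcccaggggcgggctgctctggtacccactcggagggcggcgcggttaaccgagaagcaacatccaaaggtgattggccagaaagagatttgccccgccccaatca
Trib3: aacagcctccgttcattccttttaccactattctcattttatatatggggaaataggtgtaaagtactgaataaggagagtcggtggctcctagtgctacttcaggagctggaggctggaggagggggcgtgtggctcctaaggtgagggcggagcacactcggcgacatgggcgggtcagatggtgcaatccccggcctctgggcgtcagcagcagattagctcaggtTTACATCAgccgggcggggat
Slc7a1: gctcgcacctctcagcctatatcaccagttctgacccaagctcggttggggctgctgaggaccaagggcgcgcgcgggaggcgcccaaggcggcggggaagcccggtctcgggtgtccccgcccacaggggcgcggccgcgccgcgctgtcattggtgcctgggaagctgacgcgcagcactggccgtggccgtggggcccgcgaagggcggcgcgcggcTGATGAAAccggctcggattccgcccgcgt

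The class I genes RT1-A1, RT1-A2 and B2m were lower in rods as well, and AP-1 genes had no member called. Jun, a subunit of the AP-1 transcription factor, stood at 709 CPM in control, 74.3 at 2 weeks, 161 at 4 weeks and 417 CPM at 8 weeks (log2 ratio -0.76, -0.84 to -0.69), and Atf3 had 412 and 226 CPM, log2 ratio -0.87. None of 6 AP-1 genes was called, with a median of -0.53. RT1-A1 and RT1-A2, class I genes of the rat histocompatibility complex, stood at 451 CPM in control, 134 at 2 weeks, 341 at 4 weeks and 166 CPM at 8 weeks (log2 ratio -1.44, -1.56 to -1.33) and at 715 CPM in control, 269 at 2 weeks, 908 at 4 weeks and 323 CPM at 8 weeks (log2 ratio -1.15, -1.23 to -1.06). B2m, the light chain shared by class I molecules, had 43.2 and 16.1 CPM, log2 ratio -1.42. Of 7 class I genes 3 were lower and 1, RT1-CE4, was higher (12.3 and 34.8 CPM, log2 ratio 1.49). RT1 genes are near-identical and differ between animals, so reads may be split unevenly among copies and single RT1 values are uncertain.

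The visual machinery of rods showed no gene past 2-fold. None of 26 phototransduction and outer segment genes was called, and 21 lay above 0, with a median of 0.12. Sag, the arrestin that ends the light response of rods, had 3468 and 4721 CPM, log2 ratio 0.45, 0.42 to 0.47. Of 14 clock genes Cry2 and Ciart, another clock repressor (34.7 and 12.8 CPM, log2 ratio -1.43), were lower. The median of the clock list was -0.16. Vegfa, the main vascular growth factor, stood at 224 CPM in control, 36.8 at 2 weeks, 107 at 4 weeks and 155 CPM at 8 weeks (log2 ratio -0.53, -0.66 to -0.40).

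**Figure D3:**
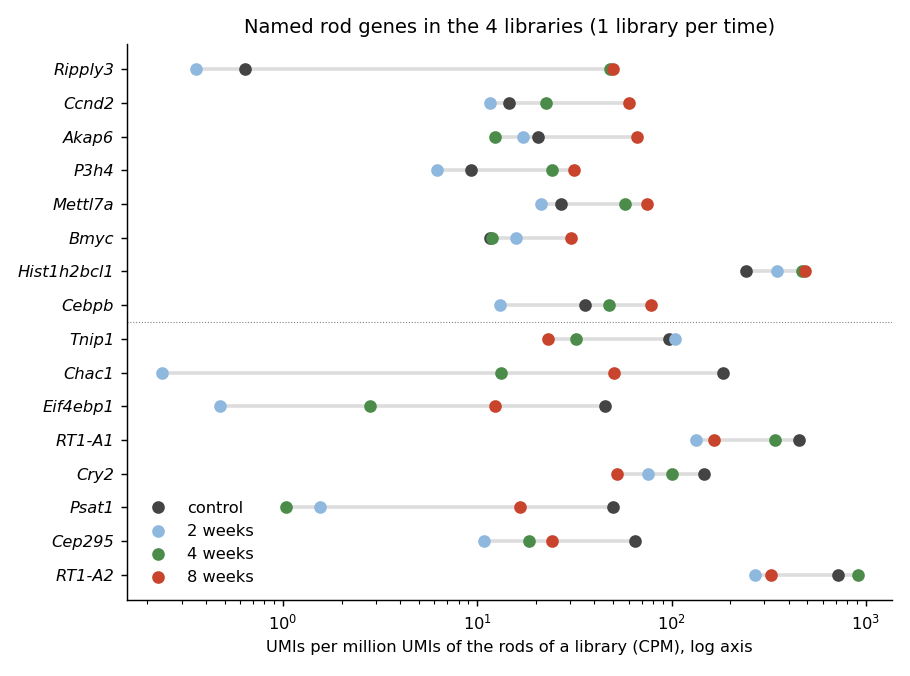
CPM in rods (log axis) for the leading rod genes in control and at 2, 4 and 8 weeks, 1 point per library, with a grey line over their range. Ripply3 and Ccnd2 are highest at 8 weeks, while Chac1 and Eif4ebp1 are lowest at 2 weeks and remain under control at 8 weeks.

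Cones at 8 weeks held more Pde6h and Ccdc136 and less Igf2bp2, whereas both cone opsins and the cone arrestin stayed within 2-fold. The class had 85 cells in control and 113 at 8 weeks. Of 3397 genes compared, 64 were higher (1.88%) and 40 lower (1.18%), with a median log2 ratio of -0.02 and a median interval half-width of 0.748.

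Pde6h stood at 11396 CPM in control, 10763 at 2 weeks, 9410.0 at 4 weeks and 24450.0 CPM at 8 weeks (log2 ratio 1.10, 1.05 to 1.16), with 8 weeks above the 3 other libraries. Ccdc136, a coiled-coil protein gene on the cone list, stood at 93.9 CPM in control, 163 at 2 weeks, 252 at 4 weeks and 333 CPM at 8 weeks (log2 ratio 1.81, 1.26 to 2.43) and was higher in each diabetic library than in control. Of 13 cone genes compared, these were the 2 called, and the list's median was 0.01. Opn1sw, the short-wavelength opsin, had 1567 and 2707 CPM, log2 ratio 0.79, 0.64 to 0.94. Opn1mw, the middle-wavelength opsin, had 1100.0 and 1048 CPM, log2 ratio -0.07, the cone arrestin gene Arr3 3515 and 3532 CPM, log2 ratio 0.01, and the transducin gene Gnat2 7391 and 6927 CPM, log2 ratio -0.09. The remaining higher genes named by rule were Nell2 (1.54), a secreted neuronal protein, Ckap5 (1.47), which extends microtubules, the translation factor gene Eif4b (1.23), Tex28 (1.15), Phyhd1 (1.13) and Psmg3 (1.17), a chaperone of proteasome assembly.

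Igf2bp2, a binding protein of messenger RNAs, stood at 142 CPM in control, 81.7 at 2 weeks, 21.7 at 4 weeks and 18.2 CPM at 8 weeks (log2 ratio -2.89, -4.26 to -1.87). Its level was lowest in the 4-week and 8-week libraries. Mt3, a metal-binding metallothionein, had 176 and 75.2 CPM, log2 ratio -1.22, -1.89 to -0.58, the small GTPase gene Hras had 115 and 47.9 CPM, log2 ratio -1.25, -2.11 to -0.46, and Pafah1b3, a subunit of a platelet-activating factor hydrolase, had 203 and 95.7 CPM, log2 ratio -1.08, -1.68 to -0.51. With a mitochondrial limit of 10%, the Pafah1b3 ratio was 0.09. The other lower genes were Dctn5 (-1.80) of the dynactin complex, the selenoprotein gene Selenoh (-1.21), Mtx1 (-1.55), which acts in mitochondrial import, and Shisa8 (-1.13). Of 7 clock genes 6 lay above 0 with a median of 0.35, and Nr1d1, which encodes the clock repressor REV-ERB alpha, was higher (21.2 and 66.1 CPM, log2 ratio 1.56, 0.42 to 3.07). Apoe in cones rested on 1 cell, which held 82.35% of its UMIs at 8 weeks. Cells in which at least 2% of UMIs came from rod genes were 23.53% of control cones and 30.97% of 8-week cones.

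Bipolar cells gave the longest list, and rod transcripts and the makeup of the class moved with it. Of 5797 genes compared over 274 control and 380 8-week cells, 348 were higher (6.0%) and 64 lower (1.1%). Rod-rich cells, those above the same 2% limit, were 9 of the 274 (3.28%) and 78 of the 380 (20.53%). Of the 78, 52 lay in cluster 18, which had Pcp2, Car8 and Prkca among its markers and held 8 control cells and 67 8-week cells, with 0.24% and 7.13% of all UMIs of their libraries. Its 8-week cells had a median of 8277 UMIs. Leaving out rod-rich cells thus also took most of the 8-week cells of cluster 18 out, so that the loss of rod transcripts and that of these cells cannot be told apart. With free RNA subtracted 249 genes were higher and 832 lower, and with a mitochondrial limit of 10% 24 were higher and 26 lower. The summed rod markers were 5051 CPM in control and 20178 at 8 weeks. Among 24 rod genes compared, 23 were higher. Once rod-rich cells were left out, a choice made after seeing the data that by its construction lowers the rod genes, none of 23 rod genes was called, 18 lay above 0 and their median was 0.37.

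The remaining 265 control and 302 8-week bipolar cells had 62 higher (1.11%) and 28 lower (0.501%) genes of 5588. When the libraries were scaled by TMM, a trimmed mean of the gene ratios, 44 were higher and 35 lower. The TMM factors move every ratio by -0.10 in all bipolar cells, by 0.15 in endothelial cells and by less than 0.1 in the other classes. In these cells the secreted matrix protein gene Sparcl1 was lower and the adhesion ligand gene Nxph1 was higher, while the ON cascade had no member called. Sparcl1 stood at 378 CPM in control, 432 at 2 weeks, 105 at 4 weeks and 77.5 CPM at 8 weeks (log2 ratio -2.28, -2.64 to -1.95), high in control and at 2 weeks and low at 4 and 8 weeks, and its ratio was -1.84 in cluster 11, which held most of its UMIs. Nxph1, a secreted synaptic adhesion ligand, stood at 14.3 CPM in control, 32.1 at 2 weeks, 23.8 at 4 weeks and 62.2 CPM at 8 weeks (log2 ratio 2.08, 1.30 to 3.03). Cluster 28, whose leading genes include Nxph1, held 5 control cells and 22 at 8 weeks.

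Tfrc, the transferrin receptor that brings in iron, had 102 and 48.7 CPM, log2 ratio -1.06, -1.57 to -0.59, with -1.61 to -0.82 in 3 clusters, and the protocadherin gene Pcdh7 had 60.2 and 24.3 CPM, log2 ratio -1.29. The cone bipolar transcription factor genes Vsx1 and Irx6 were lower, Vsx1 at 43.0 CPM in control, 108 at 2 weeks, 55.2 at 4 weeks and 13.5 CPM at 8 weeks (log2 ratio -1.64, -2.62 to -0.80) and Irx6 at 55.4 and 22.5 CPM, log2 ratio -1.28. The remaining lower genes were Azi2 (-1.79), Acsl4 (-1.63), which loads polyunsaturated fatty acids onto coenzyme A, and Spink4 (-1.58). With the limit on mitochondrial UMIs at 10%, Vsx1, Pcdh7 and Spink4 had ratios of 0.50, 0.13 and 0.50, and with it at 40% Vsx1 had 0.04. The genes higher beside Nxph1 were Lix1 (25.8 and 63.1 CPM, log2 ratio 1.27, 1.30 to 1.98 in 2 clusters), Ube2ql1 (1.50), the mitochondrial import gene Tomm6 (1.71, but -0.71 to 2.91 over 3 clusters), the proteoglycan gene Spock3 (1.57), Snx24 (1.67), the adhesion gene Cntnap5b (1.54) and Cenpv (1.58).

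Genes of rod bipolar cells, the subtype that serves rods, depended on which barcodes were kept. Pcp2, a modulator of G protein signalling in ON bipolar cells, stood at 874 CPM in control against 2465 at 8 weeks over all bipolar cells (log2 ratio 1.50, 1.40 to 1.60) and at 783 CPM in control against 1466 at 8 weeks without rod-rich cells (log2 ratio 0.90, 0.78 to 1.03), and over all bipolar cells it lay between -0.46 and 0.92 in 3 clusters. Prkca, the protein kinase C that marks rod bipolar cells, had 33.0 and 107 CPM, log2 ratio 1.68 and, without rod-rich cells, 23.9 and 41.4 CPM, log2 ratio 0.78, and was at -0.22 in the 1 cluster with enough UMIs, from 5 in each library. The barcodes over the mitochondrial limit that were nearest to bipolar cells, 1722 in control and 2454 at 8 weeks, carried 3809 and 4555 CPM of Pcp2 and 129 and 143 CPM of Prkca among non-mitochondrial UMIs. Their number exceeded that of the kept bipolar cells several times over, and their Pcp2 levels differed less between the libraries than those of the kept cells (1040 and 2935 on the same scale). Of 14 ON-cascade genes none was called, with a median of 0.17: Trpm1, the channel that opens in light, had 415 and 384 CPM, log2 ratio -0.11, and Grm6, the glutamate receptor upstream of it, 159 and 150.5 CPM, log2 ratio -0.08. AP-1 genes had none called of 7 and a median of -0.34. Glul in these cells (21.0 and 53.2 CPM, log2 ratio 1.32) drew 30.51% of its 8-week UMIs from 1 cell and was at -0.23 with the mitochondrial limit at 40%.

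Amacrine cells held more Cartpt and Coch and less Pkib, with the genes of GABA synthesis within 2-fold. Over 203 control and 211 8-week cells, 39 of 5731 genes were higher (0.681%) and 22 lower (0.384%), or 33 and 29 under TMM scaling. Cartpt, the precursor of the CART peptides, stood at 2569.6 CPM in control, 3082 at 2 weeks, 2877 at 4 weeks and 5353 CPM at 8 weeks (log2 ratio 1.06, 1.00 to 1.11), and was 0.69 to 0.82 higher in the 2 amacrine clusters with enough UMIs. Coch, which encodes the extracellular protein cochlin, stood at 27.3 CPM in control, 34.7 at 2 weeks, 81.1 at 4 weeks and 85.0 CPM at 8 weeks (log2 ratio 1.63, 1.13 to 2.17), high at 4 and 8 weeks. Anxa2, an annexin that binds membrane phospholipids, had 6.83 and 36.6 CPM, log2 ratio 2.37, 1.47 to 3.51. Igfbp5, a binding protein of insulin-like growth factors, had 46.0 and 121 CPM, log2 ratio 1.39, but -0.06 within the 1 cluster that had enough UMIs. The other higher genes were Gpsm3 (1.50), a modulator of G proteins, Rd3l (1.04), Psmg3 (1.15) and Dcaf13 (1.36).

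Pkib, an inhibitor of protein kinase A, stood at 78.3 CPM in control, 33.9 at 2 weeks, 0.687 at 4 weeks and 0.691 CPM at 8 weeks, from 126 UMIs in control to 1 at 8 weeks (log2 ratio -6.24, -12.14 to -4.32). The 4-week and 8-week libraries were both near 0. Pvalb, the calcium buffer parvalbumin, stood at 233 CPM in control, 732 at 2 weeks, 174 at 4 weeks and 67.0 CPM at 8 weeks (log2 ratio -1.79, -2.13 to -1.47), and cluster 19, which holds the Pvalb cells, had 16 cells in control and 3 at 8 weeks. Bdnf, a neurotrophin, had 31.7 and 11.7 CPM, log2 ratio -1.40, -2.32 to -0.62. Grm2, a glutamate receptor typical of starburst amacrine cells, had 62.1 and 24.2 CPM, log2 ratio -1.35, but -0.09 within a single cluster. The remaining lower genes were Galnt16 (-1.89), the focal adhesion gene Zyx (-1.19), the proteasome maturation gene Pomp (-1.10) and the sodium channel gene Scn1a (-1.09). Zyx lay at only -0.66 and -0.18 in 2 clusters. Scn1a lay at -0.33 and 0.29 in 2 clusters and was at 0.17 with a mitochondrial limit of 10%.

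Transmitter and peptide genes of amacrine cells were otherwise close. Of 11 neuropeptide genes Cartpt alone was higher, and the median was -0.02. Vip, the vasoactive intestinal peptide gene, had 374 and 650.2 CPM, log2 ratio 0.80, 0.65 to 0.95. Gad1 and Gad2, the enzymes of GABA synthesis, had 915 and 1007 CPM, log2 ratio 0.14 and 374 and 531 CPM, log2 ratio 0.50. The glycine transporter gene Slc6a9 had 885 and 606 CPM, log2 ratio -0.55. The Egr and Nr4a list of immediate early genes, which respond within minutes to activity, had Nr4a2 higher (33.5 and 67.7 CPM, log2 ratio 1.01, 0.52 to 1.52) among 8 compared, with 6 above 0 and a median of 0.45 against 0.03 for all genes. Nr4a2 was at 0.55 within the 1 cluster that had enough UMIs.

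Müller glia, fewer at 8 weeks, held more class I histocompatibility and galanin transcripts and less Txnip, while their homeostatic genes stayed within 2-fold. The 360 control and 133 8-week cells formed 1 cluster. Of 5934 genes compared, 115 were higher (1.94%) and 42 lower (0.708%), with a median log2 ratio of 0.07 and a median interval half-width of 0.722.

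RT1-A1 stood at 36.2 CPM in control, 167 at 2 weeks, 60.0 at 4 weeks and 318 CPM at 8 weeks (log2 ratio 3.13, 2.65 to 3.65). RT1-CE5 stood at 15.4 CPM in control, 58.8 at 2 weeks, 34.1 at 4 weeks and 118 CPM at 8 weeks (log2 ratio 2.92, 2.17 to 3.77), and RT1-S3 at 65.5 CPM in control, 159 at 2 weeks, 193 at 4 weeks and 265 CPM at 8 weeks (log2 ratio 2.01, 1.60 to 2.44). Each was above control in all 3 diabetic libraries and highest at 8 weeks. RT1-T24-4 stood at 4.62 CPM in control, 44.7 at 2 weeks, 58.8 at 4 weeks and 97.5 CPM at 8 weeks, from 6 and 42 UMIs in the pair (log2 ratio 4.30, 3.16 to 5.92), and RT1-CE10 at 346 CPM in control, 391 at 2 weeks, 619 at 4 weeks and 731 CPM at 8 weeks (log2 ratio 1.08, 0.87 to 1.29). In all, 5 of 10 class I genes were higher, none was lower and 9 lay above 0, with a median of 0.83 against 0.07 for all genes. The caution on RT1 copies holds here too.

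Gal, the precursor of the neuropeptide galanin, stood at 72.4 CPM in control, 103 at 2 weeks, 234 at 4 weeks and 211 CPM at 8 weeks (log2 ratio 1.55, 1.11 to 1.98). Dapl1 stood at 296 CPM in control, 584 at 2 weeks, 356 at 4 weeks and 859 CPM at 8 weeks (log2 ratio 1.54, 1.33 to 1.75). Gal and Dapl1 were both higher in each diabetic library than in control. Txnip, a glucose-responsive inhibitor of thioredoxin, stood at 149 CPM in control, 29.4 at 2 weeks, 64.7 at 4 weeks and 53.4 CPM at 8 weeks (log2 ratio -1.45, -2.17 to -0.85), with control above all 3 diabetic libraries. Cldn23, of the claudin family, stood at 177 CPM in control, 71.7 at 2 weeks, 144 at 4 weeks and 67.3 CPM at 8 weeks (log2 ratio -1.37, -2.01 to -0.83). The other lower genes were Grin2c (111 and 48.7 CPM, log2 ratio -1.16), a subunit of NMDA receptors, the adhesion gene Cadm3 (-1.56), the replication factor gene Rfc5 (-1.87), Coq10b (-1.64), Nipa2 (-1.55) and Fam192a (-1.30).

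Gfap, the intermediate filament of reactive glia, stood at 23.1 CPM in control, 17.6 at 2 weeks, 125 at 4 weeks and 53.4 CPM at 8 weeks (log2 ratio 1.22, 0.36 to 2.04), and 1 cell held 66.67% of its UMIs in control and 26.09% at 8 weeks. It was the 1 gene called of 9 on the reactivity list, whose median was 0.38. Vim, another filament gene, had 2052 and 2103 CPM, log2 ratio 0.04, the protease inhibitor gene Timp1 31.6 and 60.4 CPM, log2 ratio 0.94, and the signal transducer gene Stat3 78.5 and 130.0 CPM, log2 ratio 0.73. Summed astrocyte markers were 2493 CPM and 2570 CPM. The heat shock list, chaperones of protein folding, had 17 of 18 above 0 with none called and a median of 0.32. None of 6 AP-1 genes was called and 6 lay below 0 (median -0.42).

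The supporting functions of Müller glia had no gene past 2-fold. Of 14 homeostasis genes none was called, with a median of 0.09. Glul had 8602 and 9002 CPM, log2 ratio 0.07, 0.01 to 0.12, Aqp4 1075 and 977 CPM, log2 ratio -0.14, -0.30 to 0.02, Rlbp1 3673 and 3431 CPM, log2 ratio -0.10, and the glutamate transporter gene Slc1a3 2451 and 2558 CPM, log2 ratio 0.06. Potassium channel genes had 5 of 6 below 0, none called and a median of -0.29. Vegfa had 279 and 311 CPM, log2 ratio 0.16, -0.14 to 0.45.

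Microglia at 8 weeks held more Apoe, Cfd and Folr2 and less of the cytokine genes Ccl2, Cxcl2 and Tnf and of the class II genes Cd74 and RT1-Ba. Of 4483 genes compared over 213 control and 163 8-week cells, 81 were higher (1.81%) and 90 lower (2.01%), with a median of 0.01. The cells lay in 3 clusters, 15 (69 and 71 cells), 17 (78 and 50) and 20 (66 and 42). Their median depth differed, at 5227 UMIs a cell in control and 2515 at 8 weeks.

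Apoe, a lipid carrier, stood at 3054 CPM in control, 4969.9 at 2 weeks, 13078 at 4 weeks and 12140.0 CPM at 8 weeks (log2 ratio 1.99, 1.93 to 2.05), and was 1.66 to 2.22 higher in the 3 clusters. Cfd, the complement protease factor D, stood at 9.30 CPM in control, 4.29 at 2 weeks, 24.5 at 4 weeks and 109 CPM at 8 weeks (log2 ratio 3.49, 2.60 to 4.67), with 2.22 to 4.19 in 2 of the clusters. Folr2, a folate receptor known from macrophages at tissue borders, stood at 2.79 CPM in control, 8.58 at 2 weeks, 15.3 at 4 weeks and 48.0 CPM at 8 weeks, from 3 and 33 UMIs in the pair (log2 ratio 3.91, 2.43 to 6.46). Apoe was above control in each diabetic library. So was Folr2, but from 3 UMIs in control and without an interval for its low 2-week and 4-week levels. The class had 213 cells at 2 weeks and 80 at 4 weeks. Lyve1, a hyaluronan receptor also known from such macrophages, had 6.51 and 39.3 CPM, log2 ratio 2.52, 1.36 to 4.04. Fkbp5, a glucocorticoid-induced chaperone, had 26.0 and 127 CPM, log2 ratio 2.27, 1.65 to 2.95. RT1-A1 (1.71), the AP-1 repressor gene Jdp2 (2.15) and Lrrc10 (2.23) were also higher. The summed markers of other myeloid cells were 1637 CPM and 1534 CPM, and those of microglia 22218 and 24455. The myeloid sum mixes directions, since its list holds Lyve1 and also the class II genes Cd74, RT1-Ba and RT1-Da, given below. It therefore does not show whether its other members differed. Summed erythroid markers in the class were 6559 and 2289 CPM, and their part in these results was not tested.

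Ccl2, the chemokine that draws monocytes, stood at 239 CPM in control, 81.5 at 2 weeks, 107 at 4 weeks and 80.1 CPM at 8 weeks (log2 ratio -1.57, -2.02 to -1.15). Tnf, the tumour necrosis factor gene, stood at 235 CPM in control, 98.7 at 2 weeks, 49.0 at 4 weeks and 97.5 CPM at 8 weeks (log2 ratio -1.26, -1.68 to -0.88). The neutrophil chemokine gene Cxcl2 had 1992 and 954 CPM, log2 ratio -1.06, -1.19 to -0.94. Ccl2 and Tnf were highest in control, and the within-cluster ratio of all 3 could be read in cluster 17 alone, at -1.59 for Ccl2, -1.30 for Tnf and -1.09 for Cxcl2. Of 19 inflammatory genes 5 were lower (Ccl2, Tnf, Cxcl2, Cxcl1 and the survival gene Bcl2a1), 17 lay below 0 and the median was -0.53. Bcl2a1 was at -1.82 in cluster 17 and above 0 in the 2 other clusters, by at most 0.22. Cxcl1 drew 94.29% of its 8-week UMIs from 1 cell. Ccl4, the most abundant chemokine gene, had 6083 and 4027 CPM, log2 ratio -0.59, -0.66 to -0.53, but lay at -0.63 and 3.14 in 2 clusters. Ratios within a cluster have no interval and can rest on as few as 10 UMIs, so the value of 3.14 is uncertain. Over the whole class Cxcl10, an interferon-induced chemokine, was called higher (149.7 and 301 CPM, log2 ratio 1.01, 0.71 to 1.32).

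Of 3 class II genes compared, chosen after their values were seen, Cd74 and RT1-Ba were lower and RT1-Da was not called (62.3 and 32.0 CPM, log2 ratio -0.94, -1.73 to -0.25). Cd74 stood at 368 CPM in control, 78.6 at 2 weeks, 178 at 4 weeks and 154 CPM at 8 weeks (log2 ratio -1.25, -1.58 to -0.94) and lay between -1.97 and -0.67 in the 3 clusters. RT1-Ba, a class II chain, had 48 UMIs in control and 3 at 8 weeks (log2 ratio -3.15, -5.68 to -1.72), and Lilrb3a, an inhibitory receptor, 42 and 1 (log2 ratio -4.18, -10.08 to -2.19). The class I gene RT1-A2 stood at 1789.6 CPM in control, 479 at 2 weeks, 1834 at 4 weeks and 703 CPM at 8 weeks (log2 ratio -1.35, -1.49 to -1.20). Rgs1, a brake on chemokine receptor signalling, had 544 and 234 CPM, log2 ratio -1.21, with -1.33 and 0.04 in 2 clusters.

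Other microglial programmes differed less. The homeostatic list had none called of 16 and a median of -0.11, with the purine receptor gene P2ry12 at 277 and 296 CPM, log2 ratio 0.09 and Tmem119 at 1159 and 1038 CPM, log2 ratio -0.16. The list of disease-associated and lysosomal genes had Apoe higher and the tetraspanin gene Cd9 lower (345 and 159 CPM, log2 ratio -1.12) of 21, with a median of 0.01. Of 9 complement genes Cfd alone was higher, while C3 had 793 and 427 CPM, log2 ratio -0.89 and C1qb 3910.1 and 4806 CPM, log2 ratio 0.30. Heat shock genes had 14 of 17 above 0 with 3 higher (Hspb1 1.81, Hspe1 1.71 and Hspa1b 1.06) and a median of 0.49. Hspa1b lay at -1.61 and 1.08 in 2 clusters. Cholesterol synthesis genes had 10 of 13 below 0, 1 of them called (Fdft1, squalene synthase, -1.02), and a median of -0.55. AP-1 genes had none called of 8 and a median of -0.45.

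Endothelial cells at 8 weeks held less of several genes of the interferon response, of cholesterol synthesis and of inflammation, and more Ndrg1, Wfdc1 and class I transcripts of some RT1 copies, with barrier genes within 2-fold. Only 92 control and 51 8-week cells entered, with a median interval half-width of 0.805. Of 4181 genes compared, 56 were higher (1.34%) and 169 lower (4.04%). The median of all genes was -0.13, and under TMM scaling, which raises each ratio by 0.15, 91 were higher and 99 lower. Of all genes compared in this class, only 38.1% lay above 0, and the counts of list members below 0 are to be read against that share.

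Isg15, a ubiquitin-like protein induced by interferon, stood at 275 CPM in control, 84.6 at 2 weeks, 189 at 4 weeks and 61.5 CPM at 8 weeks (log2 ratio -2.13, -2.90 to -1.50), and control was the highest of the 4. The interferon-response list had 6 of 15 lower (Isg15, Irf7, Usp18, Irf1, Mx2 and Oas1a), all 15 below 0 and a median of -0.80. Irf7, the factor that amplifies interferon signalling, had 85.5 and 27.7 CPM, log2 ratio -1.56, -2.82 to -0.61. The cholesterol list had 14 of 16 below 0 and 3 lower, with a median of -0.64: Hmgcs1, which makes the precursor of mevalonate, had 106 and 24.6 CPM, log2 ratio -2.02, -3.36 to -1.05, and Idi1 354 and 129 CPM, log2 ratio -1.44. Of 7 inflammatory genes 3 were lower, Cxcl1 (65 and 1 UMIs, log2 ratio -4.25, -10.15 to -2.29), the prostaglandin synthase gene Ptgs2 (-1.99) and Nfkbiz (-1.17).

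Hbegf, a ligand of the EGF receptor, stood at 129.6 CPM in control, 121 at 2 weeks, 40.1 at 4 weeks and 30.7 CPM at 8 weeks (log2 ratio -2.01, -3.18 to -1.14). Atf3 stood at 1369.7 CPM in control, 636 at 2 weeks, 1435 at 4 weeks and 562 CPM at 8 weeks (log2 ratio -1.28, -1.52 to -1.06). The Wnt receptor gene Fzd6 had 97.6 and 18.4 CPM, log2 ratio -2.30, -3.90 to -1.21, and Bcl6b (-2.42), Tuba1c (-2.37) and Lgals3bp (-2.13) were also lower. Immediate early genes had 13 of 14 below 0, with the transcription factor gene Klf6 called (-1.31) and a median of -0.48. The list of angiogenic, tip cell and adhesion genes had 11 of 12 below 0, with the leukocyte adhesion gene Vcam1 called (40.1 and 12.3 CPM, log2 ratio -1.56, -3.67 to -0.20) and a median of -0.31. Kdr, the main VEGF receptor, was lower as well (143 and 61.5 CPM, log2 ratio -1.19, -1.99 to -0.52).

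Wfdc1 stood at 138 CPM in control, 787 at 2 weeks, 264 at 4 weeks and 698 CPM at 8 weeks (log2 ratio 2.34, 2.00 to 2.69). S100a6, a calcium-binding protein, stood at 90.9 CPM in control, 722 at 2 weeks, 178 at 4 weeks and 443 CPM at 8 weeks (log2 ratio 2.28, 1.86 to 2.72), and both were highest at 2 weeks. Ndrg1, a gene induced by hypoxia, stood at 392 CPM in control, 692 at 2 weeks, 963 at 4 weeks and 1297 CPM at 8 weeks (log2 ratio 1.73, 1.51 to 1.95), above control in all 3 diabetic libraries. Of 15 hypoxia targets 2 were higher, Ndrg1 and the collagen hydroxylase gene P4ha2 (45.4 and 92.2 CPM, log2 ratio 1.02, 0.26 to 1.77), and the median was 0.30. Lrg1, a secreted glycoprotein that promotes vessel growth, had 98.9 and 359.6 CPM, log2 ratio 1.86, 1.43 to 2.30, and Pik3ip1, an inhibitor of PI3 kinase, had 25.4 and 117 CPM, log2 ratio 2.18, 1.37 to 3.08. Clock genes had none called of 9 and a median of 0.40.

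The barrier list had none called of 23 genes and a median of -0.01. Cldn5 had 9702 and 9632 CPM, log2 ratio -0.01, -0.07 to 0.05. Slc2a1, the GLUT1 glucose transporter, had 3905 and 4868 CPM, log2 ratio 0.32, 0.23 to 0.41. Mfsd2a, a lipid transporter that limits transcytosis, had 281 and 203 CPM, log2 ratio -0.46, -0.89 to -0.06. Summed endothelial markers were 22643 and 23124 CPM, and those of pericytes and smooth muscle 57.5 and 86.1 CPM.

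**Figure D4:**
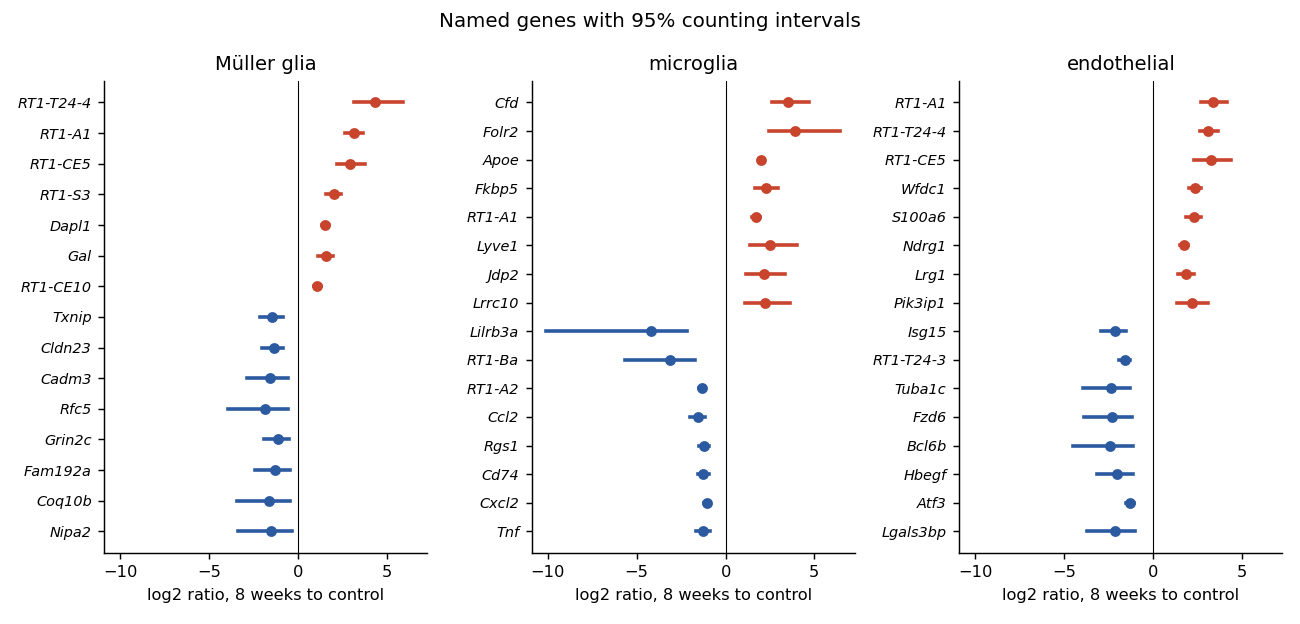
Log2 ratio of 8 weeks to control with its 95% counting interval for the leading genes described in Müller glia, microglia and endothelial cells. Apoe in microglia (1.99) has a narrow interval, whereas genes with few UMIs, such as RT1-T24-4 in Müller glia, span several units.

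Set side by side over the 7 classes, most differences were seen in 1 class. Of 1053 genes called in any class, 595 were higher in exactly 1 and 377 lower in exactly 1. The classes differ in depth, and a gene too low to compare in a class could not be called there. Higher calls in at least 3 classes were made for 13 genes, lower calls in at least 3 for 5, and 22 genes were called in opposite directions. These counts use all bipolar cells.

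Among the 13 genes higher in at least 3 classes, 3 were class I genes (RT1-A1, RT1-CE5 and RT1-CE10). Of the 5 lower in at least 3, 1 was (RT1-A2), as was 1 of the 22 called in opposite directions (RT1-A1). The share of class I genes among all genes compared was not worked out, so these counts are not read as an excess. RT1-CE10 reaches 3 classes only with its call in all bipolar cells. Copies of the family went in different directions. RT1-A1 was higher in bipolar, amacrine, Müller, microglial and endothelial cells and lower in rods, although in bipolar cells without rod-rich cells it was at 0.56 and not called. In endothelial cells it stood at 28.1 CPM in control, 134 at 2 weeks, 63.0 at 4 weeks and 298 CPM at 8 weeks (log2 ratio 3.38, 2.72 to 4.16), and in microglia at 231 CPM in control, 446 at 2 weeks, 73.5 at 4 weeks and 756 CPM at 8 weeks (log2 ratio 1.71, 1.49 to 1.93). RT1-A2 was lower in rods, microglia and endothelial cells. RT1-CE5 was higher in Müller, microglial and endothelial cells, in the last at 14.7 CPM in control against 144 at 8 weeks (log2 ratio 3.25, 2.33 to 4.39). RT1-T24-4 in endothelial cells stood at 53.5 CPM in control, 436 at 2 weeks, 596 at 4 weeks and 467 CPM at 8 weeks (log2 ratio 3.11, 2.62 to 3.67), while RT1-T24-3 stood at 976 CPM in control, 323 at 2 weeks, 369.5 at 4 weeks and 319.6 CPM at 8 weeks (log2 ratio -1.60, -1.92 to -1.31). The diabetic libraries lay on one side of control for each of these T24 copies. Since each library comes from its own animal or animals, differences in RT1 alleles between animals cannot be told apart from differences in level.

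**Figure D5:**
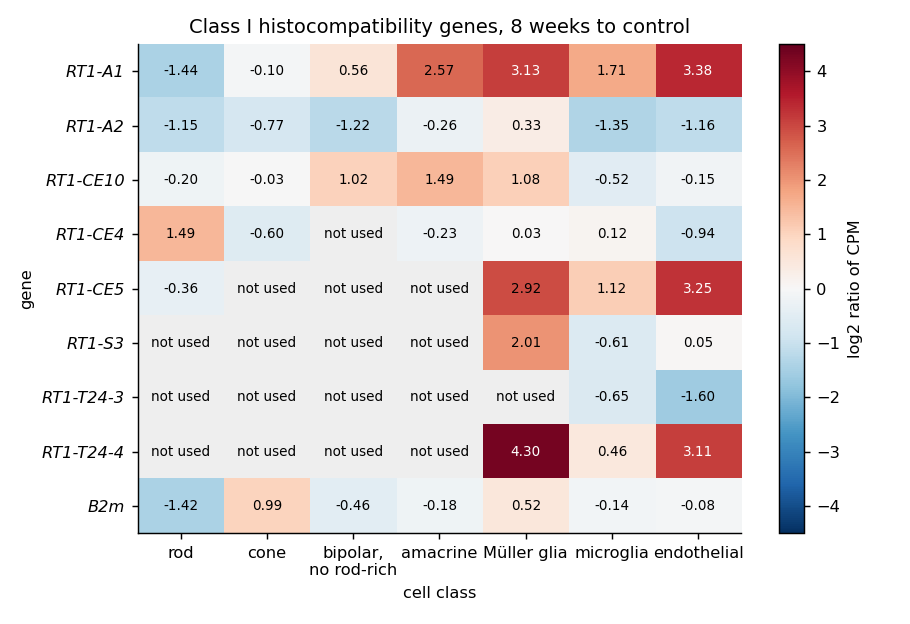
Log2 ratio of 8 weeks to control for class I genes (rows) in each class (columns), with grey cells where a gene was too low to compare. RT1-A1 is positive in endothelial cells (3.38) and Müller glia (3.13) and negative in rods (-1.44), and RT1-A2 is negative in rods (-1.15).

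Of 2241 genes compared in all 7 classes, 5 were at least 0.5 higher in each class and 2 at least 0.5 lower in each. Psmg3 was among the higher ones, from 0.93 to 1.17 over the classes. In all cells Psmg3 stood at 47.4 CPM in control, 82.0 at 2 weeks, 69.7 at 4 weeks and 104 CPM at 8 weeks. Hba-a2 (ENSRNOG00000029886), a haemoglobin alpha chain of red cells, was among the lower ones, from -2.08 to -0.61, and stood at 17815 CPM in control, 5173 at 2 weeks, 4135 at 4 weeks and 7327 at 8 weeks in all cells. Another gene of the same symbol lay between -1.23 and -0.34 over the classes and was not among them. Erythroid cells were 54 in control and 26 at 8 weeks, and the part of free haemoglobin RNA in the Hba-a2 values was not tested.

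The 2-week and 4-week libraries place these differences. Among the 24 genes higher in rods, 8 weeks had the highest level of the 4 libraries for 17. Among the 15 lower in rods, control had the highest level for 13 and 8 weeks the lowest for 3 of the 15. In Müller glia 8 weeks was the highest for 104 of 115 higher genes, and in endothelial cells it was the lowest for 148 of 169 lower genes. The genes were chosen on control and 8 weeks, and every comparison with control shares 1 library. These counts are therefore a description of order. Apoe had log2 ratios of 1.99 in microglia, 0.40 in Müller glia, -0.16 in endothelial cells, -0.26 in amacrine cells and -0.81 in rods, beside the 1-cell value in cones. In bipolar cells without rod-rich cells Apoe was at 0.85, but lay between -1.28 and 2.53 in 3 clusters. Txnip had -1.45 in Müller glia, -0.33 in endothelial cells and 0.09 in microglia.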

How the data were processed

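The authors deposited a matrix of UMI counts per gene and barcode for each library, with 25399 genes and at least 500 UMIs per barcode in the files. Cell Ranger 3.0.1 and the build Rnor_6.0 are named per the submitters' processing notes. The steps between reads and counts are otherwise not given in the sources used here. Groups came from the labels, and there was 1 library per group, so nothing was tested between conditions and no p-value is given.

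From these deposited counts, barcodes were kept that held at least 200 genes and drew no more than 20% of UMIs from mitochondrial genes. The top-scoring barcodes of scanpy's Scrublet (1.11.5) were left out as doublets, in a number that grows with the barcodes of a library, 577 in control and 279 at 8 weeks. The 4 libraries were normalized per cell, reduced to 30 principal components of 2000 variable genes and clustered (Leiden, leidenalg 0.10.2, resolution 1.0). A cluster was named only from a list of marker genes, with at least 3 of them 2-fold above the rest. Raw UMIs were then summed per class and library. Per-gene ratios have conditional binomial intervals and shares have Clopper-Pearson intervals, both at 95% and for counting error only (scipy 1.17.1). TMM factors came from edgeR 4.0.16 in R 4.3.3, which was used for no test. The ratio step was checked on simulated data. Equal composition gave each class its mean share of UMIs over the pair. A gene at 0 is given as a bound from 3 counts.

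The classes, marker lists and gene lists were chosen with earlier results of these data known. Per class, the 8 called genes with the highest and the 8 with the lowest ratio were named, ranked by the interval bound nearest 0. Named genes had to be at least as high in the class as in all cells of the higher library (0.5 of that for rods), with no cell holding over 25% of the UMIs. Up to 5 members of each list described, the class markers, and Vegfa, Gfap, Glul, Aqp4, Txnip, Apoe and Cdkn1a were added. Some genes that the rule names are not reported here. Ribosomal and mitochondrially encoded genes and genes with only a database name were not named by the rule. Other genes given were chosen after their values were seen, as were the search for the motif and the comparison without rod-rich cells. Of the symbols, 128 belong to more than 1 gene.

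Alternatives were the mitochondrial limit (10% and 40%), a minimum of 500 genes, doublets kept, Leiden resolutions of 0.5 and 2.0, clustering of the pair alone, TMM scaling, equal weight per cell, subtraction of free RNA estimated from rod genes, and mean limits of 5 and 100 CPM.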

Additional observations from a re-analysis of the deposited data

Results flagged for a closer look

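At 8 weeks 39.82% of barcodes lay over the mitochondrial limit, against 23.72% in control. These barcodes enter none of the comparisons, and the cause of the difference was not tested.

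Of the 22 genes called in opposite directions in different cell classes, the 7 that met the conditions for naming are given here. Each had intervals that exclude 0. The difference between classes was not tested in any of them. Akap13, an exchange factor for small GTPases, had a log2 ratio of 1.06 in Müller glia and -1.08 in endothelial cells. Tnfrsf12a, the receptor of the cytokine TWEAK, had 1.45 in Müller glia and -1.23 in endothelial cells. Zyx, of focal adhesions, had 1.09 in Müller glia and -1.19 in amacrine cells, but -0.66 and -0.18 in 2 amacrine clusters. Pcdhgc3, a protocadherin, had 1.22 in Müller glia and -1.25 in bipolar cells. Suclg2, a subunit of the succinyl-CoA ligase of the citric acid cycle, had 1.09 in microglia and -1.32 in endothelial cells. Eif4ebp1 had 1.09 in microglia and -1.87 in rods, and the endosomal GTPase gene Rab21 had 1.17 in cones and -1.0 in endothelial cells.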

How the results depend on the processing

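No paired analysis was possible because each group had 1 library. Within that limit, depth sets the precision: the median interval half-width was 0.226 in rods and 0.805 in endothelial cells. Both Leiden resolutions, kept doublets, a minimum of 500 genes, TMM scaling and clustering of the pair alone left all 9 counts of genes past 2-fold within 1.5 times of those reported. The other settings moved some of them, and beyond what the settings change by construction the cause was not tested. A mean limit of 5 CPM gave 436 genes over all cells, 166 in rods, 691 in bipolar cells, 163 in amacrine cells and 167 in bipolar cells without rod-rich cells. A limit of 100 CPM, which compares fewer genes, gave 40 over all cells, 9 in rods, 17 in cones, 97 in bipolar cells (4 without rod-rich cells), 6 in amacrine cells, 15 in Müller glia, 29 in microglia and 52 in endothelial cells. Equal weight per cell gave 110 over all cells (68 higher and 42 lower, against 31 and 135), 222 in bipolar cells (141 without rod-rich cells), 471 in microglia (175 higher and 296 lower, against 81 and 90) and 598 in endothelial cells. Subtracting free RNA gave 1188 in cones, 1081 in bipolar cells (249 higher and 832 lower, against 348 and 64; 246 without rod-rich cells), 104 in amacrine cells, 262 in Müller glia and 318 in microglia. A mitochondrial limit of 10% gave 38 in cones, 50 in bipolar cells (24 higher and 26 lower; 36 without rod-rich cells) and 109 in amacrine cells, and left endothelial cells at 74 higher and 122 lower, and a limit of 40% gave 58 in bipolar cells (17 without rod-rich cells). Leaving out rod-rich cells, chosen after seeing the data, gave 90 in bipolar cells.

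Of the log2 ratios of class shares, a limit of 10% moved rods to -0.02, cones to 0.35 (-0.59 to 1.25) and endothelial cells to -0.77, and one of 40% moved rods to -0.42, bipolar cells to 0.90 and amacrine cells to 0.32. Microglia were at -0.13 with a minimum of 500 genes and at -0.05 with the pair clustered alone, and bipolar cells at 0.88 without rod-rich cells. Of 242 gene ratios, 6 changed sign at the 10% limit: Pafah1b3 (0.09) and Apoe (-0.39) in cones, Scn1a in amacrine cells (0.17), and Vsx1 (0.50), Pcdh7 (0.13) and Spink4 (0.50) in bipolar cells without rod-rich cells. At 40%, Vsx1 (0.04) and Glul (-0.23) of the same cells did, and with free RNA subtracted Apoe in cones (-0.54) and Glul in those bipolar cells (-0.06). The median of the rod list less that of all genes, in bipolar cells without rod-rich cells, was -0.21 at the 10% limit and -0.12 with free RNA subtracted. No other called gene ratio changed sign under these settings, nor did any other list median that lay at least 0.3 from that of all genes.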

Other observations

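A gene with only a database name, AABR07039356.2 (ENSRNOG00000051257), chosen after its values were seen, had 1171 UMIs in the control library (83.1 CPM) and 0 in each of the 3 diabetic libraries. Against a floor of 3 counts per library (0.268 CPM at 8 weeks) it was at least 309.8-fold lower. Its control UMIs were spread over classes, with 740 in rods, 132 in Müller glia, 99 in amacrine cells and 79 in bipolar cells. Rhd and Pf4 had 0 UMIs in 8-week endothelial cells. Rhd, a red cell membrane gene, had 57 UMIs in control (at least 8.3-fold lower), and Pf4, a platelet chemokine gene, had 30 (at least 4.3-fold lower).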
